A study of Mus musculus with 9 samples.

Results

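The NR4A orphan nuclear receptors Nr4a1 (Nur77), Nr4a2 (Nurr1) and Nr4a3 (Nor1) were followed in primary mouse osteoblasts after 4 h with parathyroid hormone peptides. They are 3 of the 22180 genes that the array measured through clusters with a single symbol, and each has 1 such cluster and 0 clusters shared with another symbol. The members were found by gene symbol, and the family was picked for study with earlier results of these data known. Cells came from calvaria, the top of the skull, of C57BL/6J mice 7 to 10 days old. They were at passage 2, were put into differentiation medium with β-glycerophosphate and ascorbic acid on day 3, and went without serum for 24 h from day 10. All 9 cultures shared this preparation, and each then stood for 4 h in serum-free medium with albumin and either vehicle, 100 nM human hPTH(1-34) or 1 µM bovine (D-Trp12,Tyr34) bPTH(7-34) amide. There were 3 arrays per group. The series text gives each replicate its own cell preparation but does not say whether a preparation was split among treatments, so p-values measure the spread between these arrays.

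Nr4a proteins bind DNA as transcription factors and are called orphan receptors because no natural ligand was known for them when they were found. Their activity is set largely by how much of them the cell makes. Their genes are known as early targets of cAMP, through the factor CREB at cAMP response elements (CREs), and of other signals. hPTH(1-34) raises cAMP through its receptor, Pth1r. bPTH(7-34) is missing the start of the hormone and is used to block that receptor.

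Since CREs are the element through which cAMP is known to reach these genes, the RefSeq promoter windows of the 3 members are shown, 250 bases before to 50 after the annotated start (GRCm38.p6). All 3 matched by symbol. Capitals mark the CRE core, TGACG or its reverse complement CGTCA, and each sequence runs 5′ to 3′ on the gene's own strand.
Nr4a1, chr15:101266596-101266895, plus strand: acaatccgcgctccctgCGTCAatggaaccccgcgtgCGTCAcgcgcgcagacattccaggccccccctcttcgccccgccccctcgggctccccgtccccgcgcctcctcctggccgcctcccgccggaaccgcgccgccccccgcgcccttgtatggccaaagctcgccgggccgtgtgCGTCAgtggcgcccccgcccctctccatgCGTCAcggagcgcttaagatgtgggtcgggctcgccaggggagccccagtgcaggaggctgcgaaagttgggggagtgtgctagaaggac
Nr4a2, chr2:57123954-57124253, minus strand: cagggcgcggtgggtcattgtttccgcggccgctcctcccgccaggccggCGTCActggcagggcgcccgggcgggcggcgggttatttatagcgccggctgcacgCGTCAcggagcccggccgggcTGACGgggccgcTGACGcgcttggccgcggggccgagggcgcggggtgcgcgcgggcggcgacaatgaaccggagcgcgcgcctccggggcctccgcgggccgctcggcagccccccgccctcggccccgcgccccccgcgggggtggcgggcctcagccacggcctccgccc
Nr4a3, chr4:48045055-48045354, plus strand: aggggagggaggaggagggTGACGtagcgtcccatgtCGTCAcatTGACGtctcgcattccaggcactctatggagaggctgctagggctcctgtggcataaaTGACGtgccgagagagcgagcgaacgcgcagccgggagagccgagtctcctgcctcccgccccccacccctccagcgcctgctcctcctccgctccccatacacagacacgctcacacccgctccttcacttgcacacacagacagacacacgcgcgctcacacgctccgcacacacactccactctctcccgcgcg

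Each of the 3 windows held 4 CRE cores, all of them upstream of the start. Such a count is rare. At least 4 cores, on either strand and with overlaps allowed, were found in 76 of 32841 windows of the same length (0.231%), and at least 1 in 20.8%. The core contains a CG step, and the members' windows are rich in G and C, at 72.3% for Nr4a1, 81.7% for Nr4a2 and 64.7% for Nr4a3 against a median of 52.7%. Among the 6218 windows with a G and C content of at least 64.7%, 35 (0.563%) held at least 4 cores.

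The arrangement of the cores differed between the members. In Nr4a1 they began 233, 213, 69 and 40 bases before the start, all with CGTCA on the gene's strand. In Nr4a2 they began 200, 144, 123 and 111 bases before it, and in Nr4a3 231, 213, 205 and 147 bases before it, with both orientations in each. The full palindrome TGACGTCA, present in 1.79% of all windows, was in none of the 3. A match to the MEF2 consensus, found in 3.19% of windows, lay 167 bases before the start of Nr4a2 and in neither of the others. The NR4A binding element NBRE, AAAGGTCA on either strand, was in 1.51% of windows and in none of the 3. These are matches of letters in a short window, and binding was not measured.

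**Figure D1:**
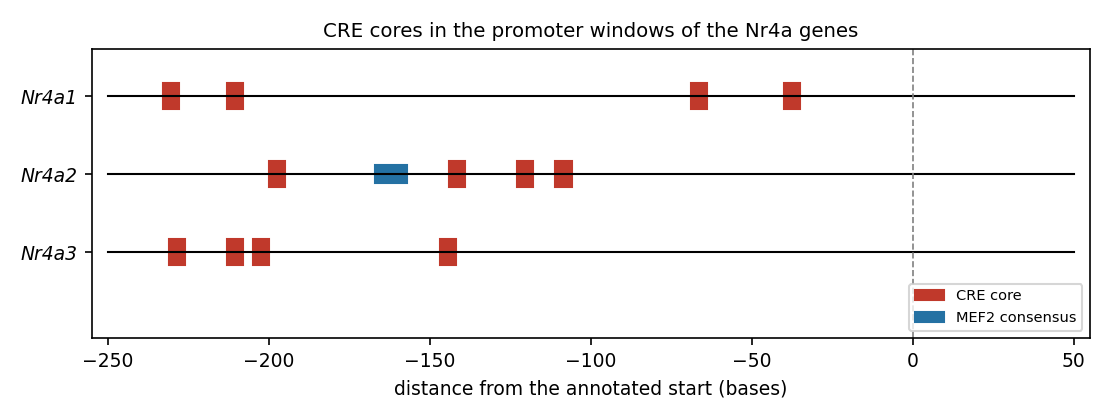
Distance in bases from the annotated start (dashed line at 0) of each CRE core (red) and of the match to the MEF2 consensus (blue) in the promoter windows of Nr4a1, Nr4a2 and Nr4a3. Each gene has 4 cores upstream of the start, and those of Nr4a3 begin from 231 to 147 bases before it.

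The arrays were alike as wholes, with correlations over all clusters from 0.977 to 0.982 within groups and from 0.972 to 0.985 between groups, and median log2 values of 1.67 to 1.76. The collagen gene Col1a1 (12.3 ± 0.11 SD, log2 level with vehicle) and the matrix gene Sparc (10.9 ± 0.006) were high, but the osteoblast factor Sp7 (1.45 ± 0.15) and osteocalcin, Bglap (1.25 ± 0.16), lay under a background limit of 1.69, the 95th percentile of 1105 olfactory receptor genes. Of 10 measured osteoblast markers, 8 were above the limit with vehicle. All 8 macrophage markers were above this limit with vehicle, as were 3 of 6 endothelial, 5 of 6 chondrocyte and 5 of 6 skeletal muscle markers. Many genes pass this limit: Fosb, just above it at 1.69 with vehicle, stood at percentile 39.9 among all genes. Counts above the limit alone therefore do not show that a cell type was present. The cartilage genes Col2a1 (6.74 ± 0.65) and Sox9 (6.58 ± 0.11) were the highest of the chondrocyte markers. Col9a1 (3.17), Col10a1 (2.40) and Acan (1.88) were lower, and Matn1 (1.13) lay under the limit. With vehicle the macrophage markers ran from Lyz2 (7.09 ± 0.55) down to Ptprc (1.99 ± 0.32). The adipocyte markers ran from Fabp4 (7.38 ± 0.28) down to Lep (1.46), which lay under the limit. The median macrophage marker level ran from 4.37 to 5.24 on the vehicle arrays, from 3.65 to 5.33 with hPTH(1-34) and from 3.68 to 5.14 with bPTH(7-34), so the groups overlapped. Among the hPTH(1-34) arrays each macrophage marker was highest on array 1, for example Adgre1 at 6.37, 4.83 and 3.78 on arrays 1, 2 and 3. That array also had the lowest Nr4a2 (5.85) and Nr4a3 (4.49) levels of its group. All 6 adipocyte markers had a positive change with hPTH(1-34), with a median of 0.46 and 0 calls, and their median level ran from 3.59 to 4.61 with vehicle and from 4.14 to 4.88 with hPTH(1-34). In cultures that may be mixed, more cells of a type and more RNA per cell cannot be told apart. The part of macrophages or adipocytes in the NR4A values was not tested. The chondrocyte and muscle lists had 0 calls and median changes of 0.04 and -0.07 with hPTH(1-34). Levels are log2 RMA values, and they are not compared between genes because probes differ.

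hPTH(1-34) raised Nr4a3 and Nr4a2, and Nr4a1 moved in the same direction without passing the adjusted threshold. On the log2 scale Nr4a3 stood at 2.18, 2.27 and 2.05 on the vehicle arrays and at 4.49, 4.83 and 5.56 with hPTH(1-34). The lowest treated array was thus more than 2 units above the highest control. The rise was 6.93-fold (log2 change 2.79 ± 0.23 SE, 95% interval 2.29 to 3.30, n = 3 per group, limma adjusted p = 0.00556). By p this was number 2 of the 23521 clusters tested, and by size of rise also number 2. Since its vehicle arrays lie near the background limit of 1.69, the size of the fold rests on a low starting level.

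Nr4a2, studied most for its role in dopamine neurons, stood at 4.72, 4.15 and 4.31 with vehicle and at 5.85, 6.45 and 6.31 with hPTH(1-34). The groups did not overlap, and the gap between them was larger than the range within either. Its rise was 3.51-fold (log2 change 1.81 ± 0.21, 95% interval 1.34 to 2.28, adjusted p = 0.0149), number 16 by p and number 21 by size.

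Nr4a1, an early response gene of many stimuli, stood at 4.19, 4.13 and 3.61 with vehicle and at 4.90, 4.71 and 5.11 with hPTH(1-34). The groups again did not overlap, but the gap between them was no wider than the range of the vehicle arrays. The log2 change was 0.93 ± 0.17 (95% interval 0.55 to 1.31), which is 1.91-fold, with an unadjusted p of 3.38e-04 in limma and adjusted p = 0.0638. It was number 124 by p and number 138 by size of rise.

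In all, 2 of the 3 members passed, where 0.451% of the 23521 clusters did (106, of which 73 were higher), and for all 3 every hPTH(1-34) array was above every vehicle array, as for 6.08% of clusters (10.7% lay apart in either direction). In pairs of arrays with the same number the log2 differences were 2.31, 2.56 and 3.51 for Nr4a3 and 1.13, 2.30 and 2.00 for Nr4a2. For Nr4a1 they were 0.71, 0.58 and 1.5. Since the groups do not overlap, each difference had to be positive, so the signs add no support. The calls depended on single arrays, as did the whole comparison. Nr4a3 lost its call without vehicle array 2 (adjusted p = 0.0673) or 3 (0.0537), while its log2 change stayed between 2.49 and 3.03. For Nr4a2 adjusted p was above the threshold without vehicle array 2 (0.0981) or 3 (0.110) and without hPTH(1-34) array 2 (0.0933) or 3 (0.104), with log2 changes from 1.69 to 1.99. The number of clusters called over all genes in these 4 fits was 0, 0, 3 and 2 in that order, and 259 without hPTH(1-34) array 1, which had the lowest Nr4a2 and Nr4a3 levels of its group. The unadjusted limma p without any single array stayed at or under 6.85e-06 for Nr4a3, 9.85e-05 for Nr4a2 and 0.00192 for Nr4a1.

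**Figure D2:**
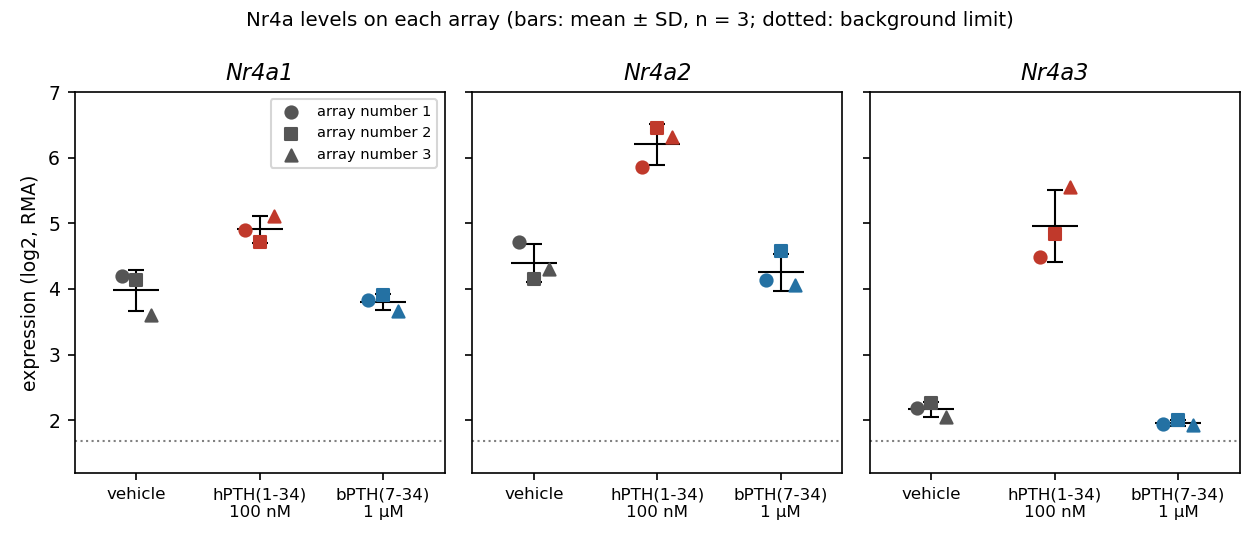
Expression (log2, RMA) of Nr4a1, Nr4a2 and Nr4a3 on each of the 9 arrays, with symbols for the array number, black bars for mean ± SD (n = 3) and a dotted line at the background limit of 1.69. The hPTH(1-34) arrays lie above all vehicle and bPTH(7-34) arrays in each panel, from 4.49 to 5.56 for Nr4a3, and heights are not comparable between panels.

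**Figure D3:**
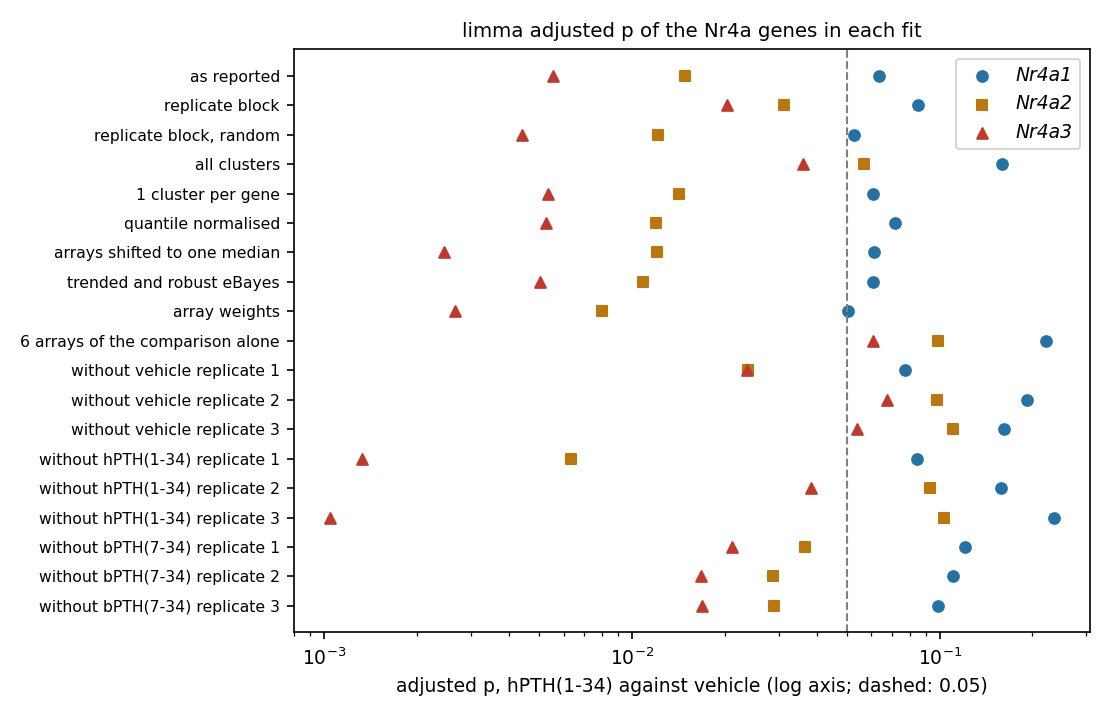
Adjusted p (log axis) for hPTH(1-34) against vehicle in each fit, for Nr4a1 (circles), Nr4a2 (squares) and Nr4a3 (triangles), with the threshold of 0.05 dashed. Nr4a3 lies above the threshold in the fit of the 6 arrays alone (0.0607) and without vehicle array 2 or 3, and Nr4a1 lies above it in every fit shown.

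After bPTH(7-34) no member passed, and all 3 means were slightly below vehicle. Nr4a3 stood at 1.94, 2.01 and 1.93, each below the lowest vehicle array (2.05). The log2 difference was -0.21 (95% interval -0.71 to 0.30, adjusted p = 0.999 in limma). Nr4a2 stood at 4.13, 4.58 and 4.06, inside and just below the vehicle range, with a log2 difference of -0.14 (-0.61 to 0.33). Nr4a1 stood at 3.83, 3.91 and 3.66, within the vehicle range, with a log2 difference of -0.18 (-0.56 to 0.20). Adjusted p was 0.999 for both.

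In this comparison 0 of 23521 clusters (percent called 0) had an adjusted p under 0.05 in limma, and 780 (3.32%) an unadjusted p under 0.05, with 0 of the 3 members among them. Groups that do not overlap, as for Nr4a3, were seen for 5.29% of clusters. The intervals hold falls of up to 0.71 and rises of up to 0.33 log2 units, so changes of that size are not excluded. Without vehicle array 1 the Nr4a2 difference changed sign, to 0.027. Within array numbers the Nr4a3 difference was -0.24, -0.26 and -0.12, that of Nr4a2 -0.59, 0.43 and -0.25, and that of Nr4a1 -0.36, -0.22 and 0.05.

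All 3 members were higher with hPTH(1-34) than with bPTH(7-34). hPTH(1-34) was given at 100 nM and bPTH(7-34) at 1 µM, so peptide and dose cannot be told apart here. The log2 difference was 3.00 ± 0.23 for Nr4a3 (8-fold, adjusted p = 0.00329), number 1 by p of all clusters. It was 1.95 ± 0.21 for Nr4a2 (3.85-fold, adjusted p = 0.0112, number 9 by p). For Nr4a1 it was 1.11 ± 0.17 (2.15-fold, adjusted p = 0.0335, number 62 by p). Thus 3 of 3 members passed, where 0.463% of clusters did (109), and for all 3 every hPTH(1-34) array was above every bPTH(7-34) array, as for 5.99% of clusters (11.1% lay apart in either direction).

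The Nr4a3 call in this comparison held without each array in turn (adjusted p from 5.60e-04 to 0.0481). The Nr4a2 call was lost without hPTH(1-34) array 2 (0.0905) or 3 (0.0788) and without bPTH(7-34) array 2 (0.0515) or 3 (0.0653). That of Nr4a1 ended on leaving out vehicle array 2 (0.0640), hPTH(1-34) array 2 (0.107) or 3 (0.140), or bPTH(7-34) array 1 (0.0987), 2 (0.0981) or 3 (0.145). This comparison shares the hPTH(1-34) arrays with the first, so the values are not independent of it. A moderated F-test of any difference among the 3 groups gave adjusted p = 0.00430 for Nr4a3, 0.0138 for Nr4a2 and 0.0498 for Nr4a1, where 0.383% of clusters passed. The F-test call of Nr4a1 was lost without any 1 of the 9 arrays (adjusted p from 0.0648 to 0.268). That of Nr4a2 was lost without vehicle array 3 (0.0699) or hPTH(1-34) array 2 (0.144) or 3 (0.136).

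**Figure D4:**
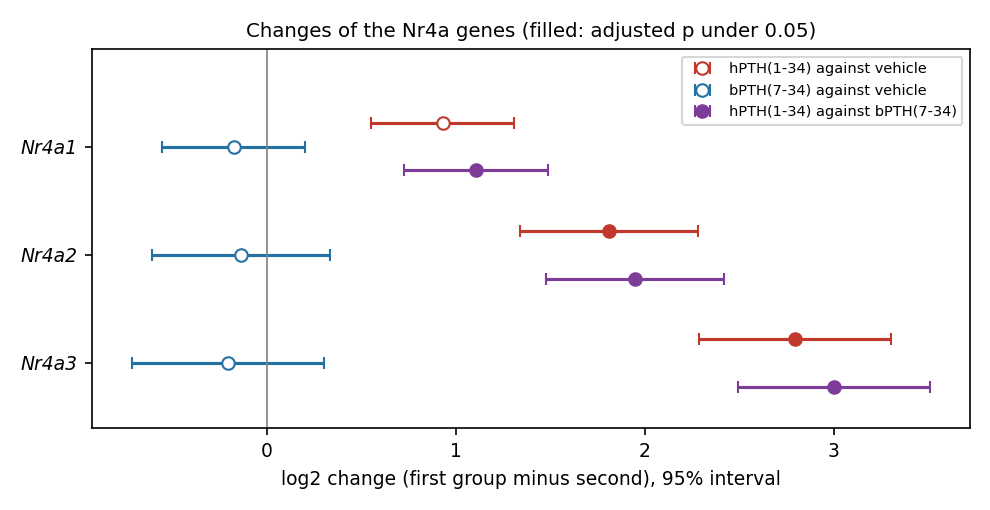
Log2 change (first group minus second) with 95% intervals from limma for the 3 members in the 3 comparisons, with filled circles for adjusted p under 0.05. The bPTH(7-34) changes lie from -0.21 to -0.14 with intervals across 0, and the hPTH(1-34) changes over vehicle are 0.93, 1.81 and 2.79.

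The members differed in how far they moved with hPTH(1-34). On each array the log2 value of a member was subtracted from that of another, and this difference was compared between vehicle and hPTH(1-34), for 3 pairs in all. The change of Nr4a3 exceeded that of Nr4a2 by 0.98 log2 units and that of Nr4a1 by 1.86, and the change of Nr4a2 exceeded that of Nr4a1 by 0.88. In each pair the per-array differences of the 2 groups did not overlap. The exact two-sided permutation test gave p = 0.10 for each pair (0.10 after adjustment over the 3), which is the smallest value that 3 arrays against 3 can give, so the order of the changes is not tested beyond that. In pairs of arrays with the same number Nr4a3 exceeded Nr4a1 by 1.60, 1.98 and 2.01, Nr4a3 exceeded Nr4a2 by 1.18, 0.26 and 1.51, and Nr4a2 exceeded Nr4a1 by 0.42, 1.72 and 0.50. Probes differ in how well they follow a change, and a level near background compresses it, so unequal changes on an array need not be unequal in the cell.

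Among the other nuclear receptors, Vdr was the only gene to pass in the same comparison. Of 46 listed, 42 had a cluster with a single symbol, and 28 of these were above the background limit with vehicle. Vdr, the vitamin D receptor, stood at 7.06, 6.83 and 6.35 with vehicle and at 8.63, 9.12 and 9.17 with hPTH(1-34) (log2 change 2.23 ± 0.22, adjusted p = 0.00861). Its call was lost without vehicle array 2 (adjusted p = 0.0673) or 3 (0.0584) and without hPTH(1-34) array 2 (0.0693) or 3 (0.0648). Thus 1 of 42 rose, 0 fell and 41 did not pass, where 0.31% of clusters were called higher. Vdr lies between Nr4a3 and Nr4a2 in order of change, and Nr4a1 is next after Nr4a2.

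The remaining nuclear receptors moved less. Nr2f1 (COUP-TFI), an orphan receptor, gave 0.67 ± 0.13 (adjusted p = 0.0756, but 0.0257 without hPTH(1-34) array 1) and Ppard, a fatty acid sensor, 0.54 ± 0.13 (adjusted p = 0.148). On the lower side the clock repressor gene Nr1d2 gave -0.34 ± 0.11 (adjusted p = 0.376). Of the 42, 16 changes were positive, and their median was -0.04, against 0.00 for all clusters. Rxra, the partner with which Nr4a1 and Nr4a2 can form heterodimers, stood at 6.16 ± 0.05 (SD) with vehicle and 6.13 ± 0.05 with hPTH(1-34) (log2 change -0.03 ± 0.10). After bPTH(7-34) 0 of the 42 passed, and the smallest p belonged to Rarb, a retinoic acid receptor under the background limit in all 3 groups (log2 difference 0.35 ± 0.14), and Nr2c1 (0.22 ± 0.10), both with adjusted p = 0.999. Against bPTH(7-34) Vdr alone was higher (2.06 ± 0.22, adjusted p = 0.0112), a call lost without hPTH(1-34) array 2 (0.0926) or 3 (0.0788) or bPTH(7-34) array 2 (0.0515) or 3 (0.0653).

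**Figure D5:**
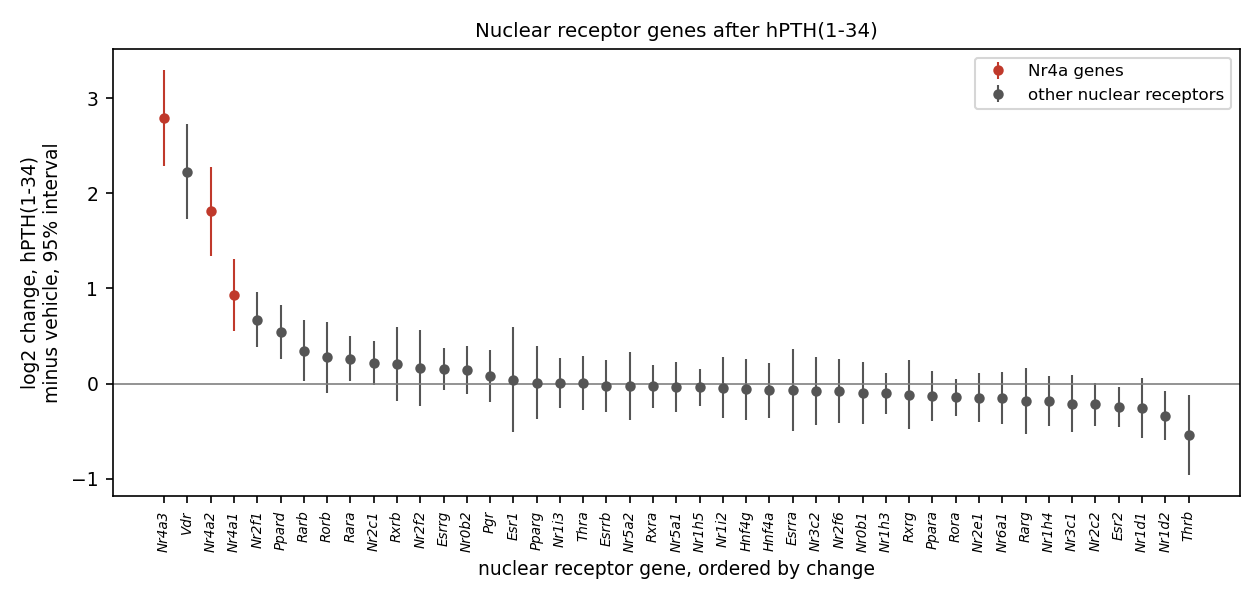
Log2 change between hPTH(1-34) and vehicle with 95% intervals for the 3 Nr4a genes (red) and 42 other nuclear receptor genes (grey), ordered by change. Nr4a3 (2.79), Vdr (2.23), Nr4a2 (1.81) and Nr4a1 (0.93) have the 4 largest rises.

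Among the factors that are known to control NR4A transcription, Crem alone passed. Of 24 listed, 23 were measured, and with hPTH(1-34) 1 rose, 0 fell and 22 did not pass, where 0.31% of all clusters were called higher. At an unadjusted p under 0.05, 6 of the 23 were higher and 2 lower, where 5.53% of clusters were higher. The gene that passed was Crem, a cAMP-responsive factor and itself a CREB target, which stood at 2.29, 2.16 and 2.30 with vehicle and at 2.74, 3.04 and 2.98 with hPTH(1-34). Its groups did not overlap (log2 change 0.67 ± 0.11, adjusted p = 0.0442), but the call was lost without 8 of the 9 arrays, all except hPTH(1-34) array 1, with adjusted p from 0.0718 to 0.201 in those 8 fits. It was also lost with trended and robust eBayes (0.0581), with all clusters tested (0.126) and with the 6 arrays of the comparison alone (0.146). Creb1, which encodes CREB, gave 0.06 ± 0.11 (adjusted p = 0.920), and its coactivator gene Crtc2 0.03 ± 0.18 (0.979). The salt-inducible kinases, which keep CRTC coactivators out of the nucleus, gave 0.79 ± 0.15 for Sik3 (adjusted p = 0.0682) and -0.05 ± 0.25 for Sik1 (0.976). Sik2, named here after its values were seen, gave 0.56 ± 0.22 (0.464). Mef2a and Mef2c, whose proteins act at MEF2 sites, gave -0.42 ± 0.11 (adjusted p = 0.220) and -0.51 ± 0.17 (0.347), and Mef2d, also named after its values were seen, went the other way at 0.53 ± 0.19 (0.398).

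The median change of the 23 was 0.02, with 12 positive. After bPTH(7-34) 0 of the 23 passed, and the smallest p belonged to the kinase subunit gene Prkar2a (-0.26 ± 0.16) and to Crtc1 (0.24 ± 0.15), both with adjusted p = 0.999. Against bPTH(7-34) Crem alone was higher (0.74 ± 0.11, adjusted p = 0.0297), where 0.332% of clusters were, and that call too was lost without 8 of the 9 arrays (0.0510 to 0.146), all except hPTH(1-34) array 1. The receptor gene Pth1r gave -0.35 ± 0.19 with hPTH(1-34) (adjusted p = 0.638).

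Most other early genes of the cAMP response did not pass at 4 h. Of 28 measured genes of 30 listed, 2 rose with hPTH(1-34), 0 fell and 26 did not pass, where 0.31% of all clusters were called higher. The median change was 0.12, with 16 positive. At an unadjusted p under 0.05, 8 of the 28 were higher and 1 lower, where 5.53% of clusters were higher. Those that rose were Crem, also in the list above, and Rgs2, which dampens G protein signals. Rgs2 stood at 4.47, 3.84 and 3.94 with vehicle and at 5.29, 5.36 and 5.68 with hPTH(1-34) (log2 change 1.36 ± 0.21, adjusted p = 0.0377). Leaving out vehicle array 2 (0.193) or 3 (0.178), hPTH(1-34) array 2 (0.159) or 3 (0.180), or bPTH(7-34) array 1 (0.0674) or 3 (0.0649) ended its call. Fosl2, an AP-1 subunit, gave 0.67 ± 0.14 (adjusted p = 0.0990, but 0.0275 without hPTH(1-34) array 1), and Nfil3, a repressor, 0.57 ± 0.16 (0.234). Fos, the prototype of early genes, stood at 2.20 ± 0.06 (SD) with vehicle and 2.17 ± 0.09 with hPTH(1-34) (log2 change -0.03 ± 0.10). Like Nr4a3, both Fos and Crem (2.25 with vehicle) lay near the background limit of 1.69, where the size of a change is less certain.

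After bPTH(7-34) 0 of these 28 passed, and the smallest p belonged to Nfil3 (-0.42 ± 0.16) and Cebpb (0.26 ± 0.14), both with adjusted p = 0.999. Against bPTH(7-34) 3 were higher, namely Rgs2 (1.30 ± 0.21, adjusted p = 0.0389), Crem and Nfil3 (0.99 ± 0.16, adjusted p = 0.0376). The Rgs2 and Nfil3 calls were lost without hPTH(1-34) array 2 or 3, vehicle array 2 or 3, or any bPTH(7-34) array, and that of Nfil3 also without vehicle array 1, with adjusted p from 0.0515 to 0.162 in those fits.

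NR4A partners and coregulators showed no call, which is near the share over all clusters. Of 16 measured genes of 19 listed, 0 passed in any of the 3 comparisons by limma. Of all clusters, 0.451% passed with hPTH(1-34), 0 after bPTH(7-34) and 0.463% between the peptides. Also, 0 of the 16 had an unadjusted p under 0.05 in any of them. That share was 9.31% of clusters with hPTH(1-34) and 3.32% after bPTH(7-34). With hPTH(1-34) their changes ran from -0.37 to 0.21, with a median of 0.01 and 8 positive. The smallest p values belonged to the coactivator gene Ncoa2 (-0.31 ± 0.14), Bcl2, whose protein can bind Nr4a1 at mitochondria (-0.37 ± 0.23), the glucocorticoid receptor gene Nr3c1 (-0.21 ± 0.13) and Trim28 (0.18 ± 0.12). Their adjusted p ran from 0.542 to 0.696. In the other comparisons the smallest p belonged to Rxrb, with 0.39 ± 0.17 against bPTH(7-34) (adjusted p = 0.525) and -0.19 ± 0.17 after bPTH(7-34).

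Genes reported as NR4A targets in other work, in osteoblasts or in other cells, did not pass either. Of 22 measured of 24 listed, 0 passed with hPTH(1-34) in limma, which is near the 0.451% of all clusters that did. At an unadjusted p under 0.05, 4 were higher (5.53% of all clusters were, and 9.31% in either direction). The median change was -0.01 with 9 positive. With vehicle 10 of the 22 lay under the background limit. The alkaline phosphatase gene Alpl, reported as a Nr4a2 target in osteoblasts, stood at 5.26, 5.86 and 5.39 with vehicle and at 6.32, 6.73 and 6.38 with hPTH(1-34). Its groups did not overlap, and the log2 change was 0.97 ± 0.17 (adjusted p = 0.0601). Alpl passed with arrays shifted to a common median (0.0457), trended and robust eBayes (0.0488), array weights (0.0290) and a mean log2 of at least 5 (0.0185). It did not pass with all clusters tested (0.160), quantile normalisation (0.0816) or the 6 arrays of the comparison alone (0.217). Without any 1 of the 9 arrays it did not pass either (0.0530 to 0.237). Star, which carries cholesterol into mitochondria, gave 0.87 ± 0.17 (adjusted p = 0.0824), from a vehicle level of 2.18 near the background limit. It passed with array weights (0.0401). Of the 9 fits without an array, 1 passed (0.0108 without hPTH(1-34) array 1), and adjusted p reached 0.284. The receptor tyrosine kinase gene Ret gave 0.91 ± 0.25 (0.234) and the cell cycle ligase gene Skp2 0.67 ± 0.19 (0.240).

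Bglap was below the background limit in each group, so no change could be measured for it, and Spp1 was not analysed here because no cluster carries its symbol alone. After bPTH(7-34) 0 of the 22 passed, with the smallest p for Fbp1, also under the background limit in all 3 groups (0.31 ± 0.12, adjusted p = 0.999). Against bPTH(7-34) 0 passed as well, with Alpl at 0.99 ± 0.17 (adjusted p = 0.0539) and Star at 0.96 ± 0.17 (0.0569, but 0.00805 without hPTH(1-34) array 1). Of the 15 targets with a promoter window, 0 held the NBRE, which 1.70% of all genes hold.

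The members followed each other over the 9 arrays, and other genes followed them more closely still. As a description with no test, the correlation over the 9 arrays was 0.966 between Nr4a2 and Nr4a3, 0.946 between Nr4a1 and Nr4a3 and 0.919 between Nr4a1 and Nr4a2. The 9 arrays share 3 groups, and most of such a correlation is the gap between hPTH(1-34) and the rest. Of the deviations from the group means the correlations were 0.368, 0.497 and 0.239.

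Of 8895 other genes, 5 were closer to Nr4a1 than Nr4a3 was, and 14 were closer to Nr4a3 than Nr4a2 was. Closest to Nr4a3 were Ugdh (r = 0.985), which makes UDP-glucuronic acid, the Cdc42 activator gene Dock9 (0.984), the mevalonate pathway kinase gene Pmvk (0.981), the triglyceride enzyme gene Dgat1 (0.981) and Clasp2 (0.980), which binds microtubule ends. Their log2 changes with hPTH(1-34) ran from 1.14 ± 0.17 for Clasp2 to 3.71 ± 0.26 for Dgat1. Closest to Nr4a2 were the tyrosine phosphatase gene Ptpn2 (r = 0.996), the chaperone gene Hsph1 (0.990), the nucleoside kinase gene Uck2 (0.988), the phosphodiesterase gene Pde10a (0.986) and the cytokine receptor gene Il4ra (0.986). The mean Ptpn2 level was 7.55 ± 0.12 (SD, n = 3) after hPTH(1-34), 6.59 ± 0.13 after vehicle and 6.48 ± 0.18 after bPTH(7-34). The deviations of Ptpn2 and Nr4a2 from the group means had a correlation of 0.944. Ptpn2 was chosen by a correlation that includes these deviations, so this value is no separate evidence. These 10 genes passed in limma, with adjusted p from 0.00287 to 0.0342.

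Closest to Nr4a1 were Zdhhc14 (r = 0.970), a palmitoyltransferase gene, the ubiquitin ligase gene Rnf149 (0.962), the Golgi protein gene Golph3 (0.951), the alanine aminotransferase gene Gpt2 (0.949) and the lipid transfer gene Pitpnc1 (0.948). None of these 5 passed in limma (adjusted p from 0.0713 to 0.155), like Nr4a1 itself. The correlation chose these genes, so their changes are no independent result. Of the 15, 12 had a promoter window, and 3 of them (Golph3, Dock9 and Clasp2) held a CRE core, which 23.0% of all 27018 genes do.

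None of the measured genes beside the members on the chromosome passed. Of the 12 protein-coding genes within 2 places of a member in the RefSeq order, 10 were measured, and 4 of these were below the background limit in every group. With hPTH(1-34) 0 of the 10 passed in limma, which is near the 0.451% of all clusters that did. Their log2 changes ran from -0.06 to 0.46, with a median of 0.08. The largest was that of Acvr1b, an activin receptor gene near Nr4a1 (0.46 ± 0.17, unadjusted p = 0.0213, adjusted p = 0.415). Acvr1b was the only neighbour of the 10 with an unadjusted p under 0.05, which is near the 9.31% of all clusters with such a p. Grasp, next to Nr4a1, gave 0.31 ± 0.22, Stx17, next to Nr4a3, 0.0067 ± 0.098 and Kcnj3, next to Nr4a2 and under the background limit, 0.0067 ± 0.19.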

How the data were processed

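The deposited value table holds log2 expression per transcript cluster (the probe group of a transcript region) on Affymetrix Mouse Gene 2.0 ST arrays. Per the submitters' processing notes, the authors made the log2 values with Affymetrix Expression Console and RMA, which corrects background, quantile normalises and summarises probes. Versions and the genome build are not given in the sources used here. Of 41345 clusters, the array's annotation gives 1 symbol for 23521. These stand for 22180 genes, each read from its cluster with the highest mean over the 9 arrays. All 23521 were fitted by lmFit and eBayes of limma (version 3.58.1, R 4.3.3) on 9 arrays with group as the only term, 6 residual and 3.20 prior degrees of freedom, two-sided, Benjamini-Hochberg adjusted within a comparison over the 23521 clusters, threshold 0.05. Intervals of 95% come from this fit. The fit was tested on simulated data.

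The members and lists were chosen with earlier results of these data known. Genes named from a list are those that passed, up to 4 of lowest p in hPTH(1-34) against vehicle, up to 2 in each other comparison, and a few fixed genes. Genes like a member are the 5 with the highest correlation over the 9 arrays among 8895 genes with a mean log2 of at least 3. The promoter search and the neighbouring genes were added after seeing the data. Promoter windows are from RefSeq (GRCm38.p6). Python 3.11.15 and matplotlib 3.10.9 made the plots. The rule for pairing asked that every correlation between deviations of arrays with the same number be over 0.1. Of the 9, 6 were (range 0.0646 to 0.364), so by this rule the number did not pair the arrays. All 9 were positive, so arrays with the same number were somewhat alike, and the main fit does not take this into account.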

Additional observations from a re-analysis of the deposited data

How the results depend on the processing

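The members kept their direction in both hPTH(1-34) comparisons under every alternative that gave them a value, and adjusted p moved more than the changes did. With the array number as a replicate block, Nr4a1 missed the threshold against bPTH(7-34) (1.11, adjusted p = 0.0505 in limma) and in the F-test (F = 23.6, 0.0781), and no other member call changed. The block also ended the Crem call over vehicle (0.67, 0.0550) and made Alpl pass (0.97, 0.0204). With all 41345 clusters tested, Nr4a2 missed it against vehicle (1.81, 0.0566), against bPTH(7-34) (1.95, 0.0511) and in the F-test (49.5, 0.0635), as did Nr4a1 against bPTH(7-34) (1.11, 0.110) and in the F-test (23.1, 0.154), with 16 and 3 clusters called against vehicle and against bPTH(7-34). With the 6 arrays of a comparison alone, Nr4a2 (1.81, 0.0989) and Nr4a3 (2.79, 0.0607) missed it against vehicle and all 3 members against bPTH(7-34) (Nr4a1 1.11, 0.0993; Nr4a2 1.95, 0.0895; Nr4a3 3.00, 0.0721), with 0 clusters called in each; there are then fewer arrays to estimate the spread. Quantile normalisation ended the Nr4a1 call in the F-test (22.9, 0.0541). A mean log2 of at least 5, which leaves the 3 members out, called 182 and 211 clusters, and array weights 166 and 204. The cause of the other shifts was not tested.

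Without each array in turn the log2 change over vehicle ran from 0.75 to 1.04 for Nr4a1, from 1.69 to 1.99 for Nr4a2 and from 2.49 to 3.03 for Nr4a3, and the difference from bPTH(7-34) from 1.00 to 1.21, 1.82 to 2.12 and 2.70 to 3.24. After bPTH(7-34) it ran from -0.36 to -0.07, from -0.30 to 0.027 and from -0.27 to -0.16. F ran from 16.3 to 41.6, 34.7 to 66.1 and 78.7 to 267. Clusters called ran from 0 to 259, 0 to 0 (bPTH(7-34) against vehicle) and 2 to 262. The differences between members ran from 0.74 to 1.17 (Nr4a3 and Nr4a2), 1.67 to 2.10 (Nr4a3 and Nr4a1) and 0.66 to 1.05 (Nr4a2 and Nr4a1). Among 53 results of other named genes, 462 of 505 values under other settings and 417 of 477 without 1 array kept direction and side of the threshold; 16 and 45 lost a call, 26 and 5 gained one, and 1 and 10 changed sign. The sign changes were of small values with hPTH(1-34), namely Crtc2 (-0.013 after quantile normalisation, -0.12 to 0.23 without 1 array), Crtc1 (-0.14 to 0.05), Sik1 (-0.32 to 0.14) and Fos (-0.078 to 0.0033). The number of arrays limits precision, and no detection calls were used.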

Other observations

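Other genes were grouped by the number of CRE cores in their promoter window, without the NR4A members, and their changes with hPTH(1-34) are given as a description. Of 12426 measured genes with 0 cores, 48.6% had a positive log2 change and 4.60% were higher at an unadjusted p under 0.05 in limma. With 1 core these shares were 53.2% and 7.44% of 3320 genes, with 2 cores 58.2% and 8.90% of 977, and with 3 cores 67.2% and 15.4% of 201. Of the 59 genes other than the members with at least 4 cores, 62.7% had a positive change and 11 (18.6%) were higher at that level, among them Tinf2, a telomere protein gene (0.81 ± 0.20), and Pop4, an RNase P subunit gene (0.80 ± 0.23). Adjusted over all clusters, the shares called higher were 0.249%, 0.542%, 0.614%, 0.498% and 0, and the median changes were -0.0033, 0.0167, 0.0367, 0.08 and 0.0667, so the class with most cores did not have the largest value of either. The share lower at an unadjusted p under 0.05 was 3.80% with 0 cores, 4.25% with 1, 3.07% with 2, 0.995% with 3 and 5.08% with at least 4.

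Among genes with a mean log2 of at least 3, the share higher at an unadjusted p under 0.05 was 8.19% of 4662 genes with 0 cores, 11.0% of 1888 with 1, 11.2% of 626 with 2, 19.7% of 152 with 3 and 19.6% of 46 with at least 4. After bPTH(7-34) the shares over all genes but the members were 1.97%, 1.75%, 1.43%, 0.498% and 0. Of the 76 windows with at least 4 cores, 35 had a G and C content of at least 64.7%, against 6218 of all 32841, and its part in these shares was not tested. These shares have no test.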
